A study of Mus musculus with 6 samples.

Results

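The 9 enzymes described here make serine and pass its carbon through folate: Phgdh, Psat1 and Psph of the serine synthesis pathway, Shmt2, Mthfd2 and Mthfd1l of the mitochondrial folate branch, Shmt1 and Mthfd1 of the cytosolic branch, and Tyms, which spends a folate carbon on thymidylate. They were chosen by gene symbol, with earlier results of these data known. All 9 were found among the 24470 genes of the deposited count table and among the 11666 that passed the filter on low counts. The samples were naive CD4+ T cells, isolated by magnetic cell sorting out of spleen and lymph nodes that drain the skin. Donor mice were male and of strain C57BL/6J, and cells were cultured for 6 h. All 6 samples were stimulated by antibodies to CD3 and CD28 coated on the plastic. In 3 samples (the CCL19 group) recombinant mouse CCL19, a ligand of the chemokine receptor CCR7, was also present, and in 3 (the no-CCL19 group, titled NoCKN) it was absent. No unstimulated sample was used here, so the values compare stimulated cells with stimulated cells, and the labels give neither the age of the mice nor whether replicates came from separate animals or cultures. The p-values therefore reflect only how these samples vary, and that variation may be technical.

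Serine is made from a glycolytic intermediate in sequential steps by PHGDH, PSAT1 and PSPH. SHMT enzymes then split serine into glycine and a carbon unit carried on tetrahydrofolate, in mitochondria through SHMT2 and in the cytosol through SHMT1. In mitochondria MTHFD2 and MTHFD1L oxidise that unit and release it as formate, which MTHFD1 recharges onto folate in the cytosol for purine and thymidylate synthesis. Activated T cells are known to raise this pathway as they grow towards division.

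With CCL19, Mthfd2 stood 1.37-fold, Mthfd1 1.31-fold, Shmt1 1.31-fold, Psat1 1.26-fold and Mthfd1l 1.26-fold higher than without it, and in each of these 5 all CCL19 libraries lay above all no-CCL19 libraries, as in 15.3% of tested genes. The log2 fold change was above 0 in all 9, as in 49.8% of tested genes, with a median of 0.33. Shmt2, the most abundant of the set per length, stood 1.23-fold higher but its groups overlapped. Phgdh (1.12-fold), Tyms (1.06-fold) and Psph (1.01-fold) also overlapped. The excess was found in the cytosolic branch as well as in the mitochondrial one. No member passed edgeR's quasi-likelihood test at a Benjamini-Hochberg adjusted p under 0.05, which called 0% of all genes, and limma-voom likewise called 0 members. By unadjusted edgeR p under 0.05, 6 members stood higher and 0 lower, against 14.5% and 13% of all genes. DESeq2 called 5 of the 8 members to which it gave an adjusted p, all higher, against 6.55% of all genes called higher.

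**Figure D1:**
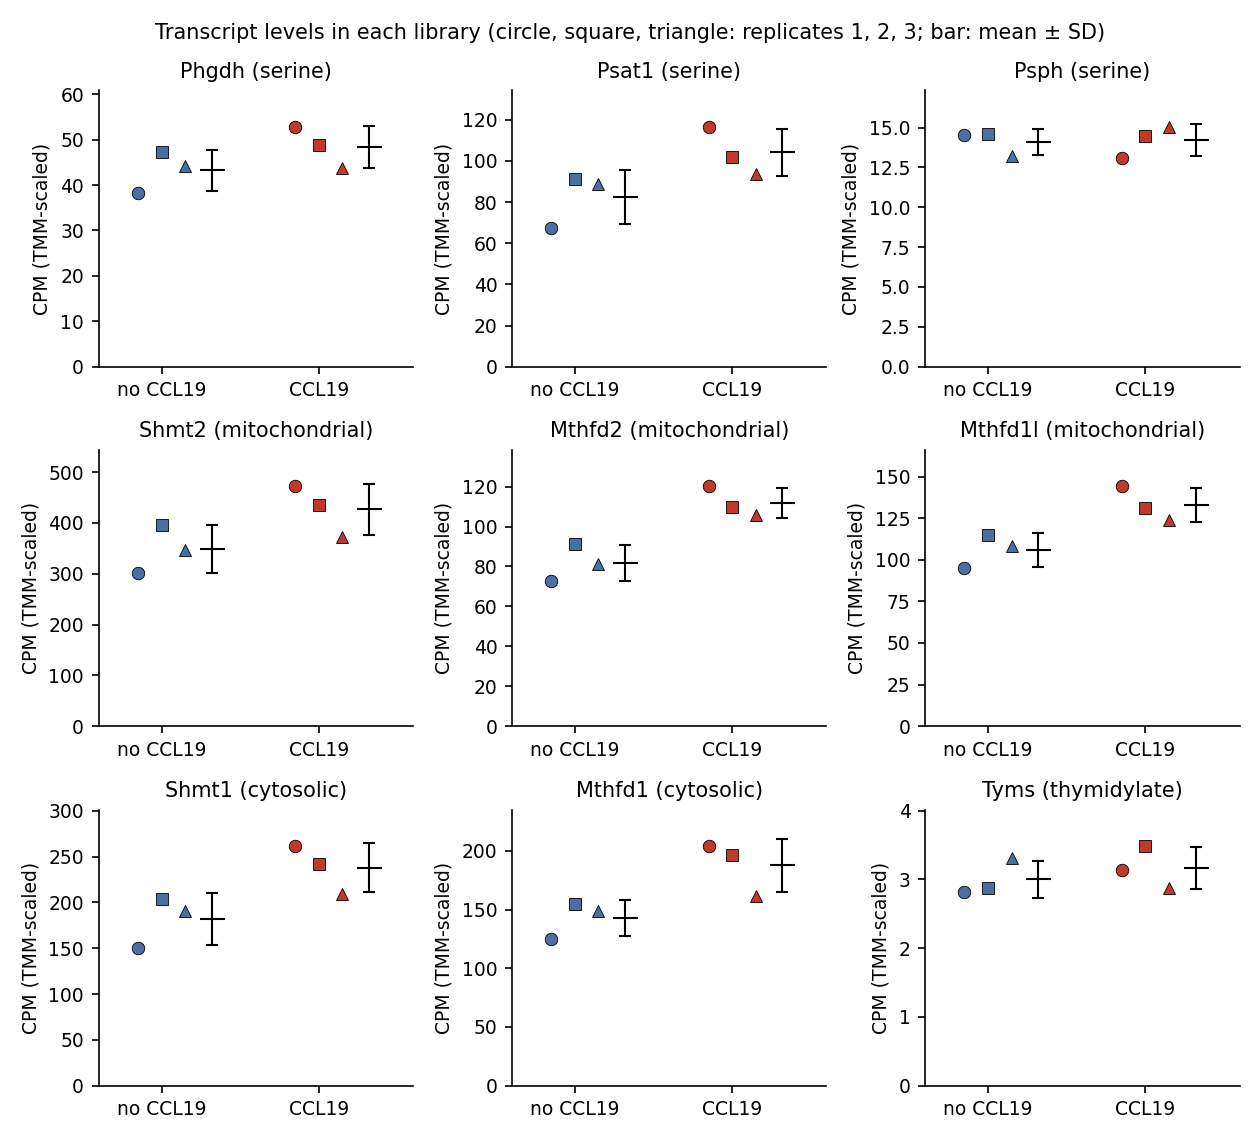
Level of each enzyme's transcript in every library, in CPM (counts scaled to a common library total, with TMM factors; y axis, from 0), for the no-CCL19 and CCL19 groups (x axis), with circles, squares and triangles for replicates 1, 2 and 3 and bars for the mean ± SD. All 3 CCL19 libraries lie above all 3 no-CCL19 libraries for Psat1, Mthfd2, Mthfd1l, Shmt1 and Mthfd1, and the groups overlap for Phgdh, Psph, Shmt2 and Tyms.

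Libraries held 16978736 to 27429898 counts, so that 1 count was worth 0.0364 to 0.0602 CPM. In the same cells the 11 T cell markers summed to between 5444 and 6156 CPM with CCL19 and between 6066 and 6848 without, and DESeq2 called 3 of them lower and 0 higher. Markers of other cells were low, at 16.5 to 22.6 against 21.2 to 24.97 CPM for 6 B cell genes and 15.04 to 20.8 against 14.4 to 21.6 CPM for 9 myeloid and dendritic cell genes. The 6 CD8 T and NK cell genes summed to 20.5 to 29.5 against 23.3 to 29.5 CPM, the 6 erythroid genes to 15.6 to 16.8 against 11.8 to 18.5 CPM, and no marker was at 0 in every library. Fewer cells of a type and less RNA per cell cannot be told apart in such bulk samples. By a chi-square of their counts over genes, the 2 most alike libraries were CCL19 replicate 3 and no-CCL19 replicate 3 (5.19 per degree of freedom, against 9.98 to 16.8 between libraries of a group), and the effect of leaving out each library is given below. The part of other cells in the differences was not tested. Over all genes, transcripts rich in GC had lower log2 fold changes (Spearman's rho = -0.312 across 11439 genes, which are not independent replicates), so the GC content of each member is given beside its result.

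The 5 members whose groups did not overlap are set beside each other by the 100 bases that precede their start site, to show what their promoters share. Sequences are from RefSeq on GRCm38.p6, the mm10 assembly, and all 9 members were matched at the start given in the count table. They run 5′ to 3′ on the gene's strand, and capitals mark the CCAAT box, a common promoter element bound by NF-Y, on either strand (CCAAT or ATTGG).
Mthfd2 (chr6:83317605-83317704, minus strand): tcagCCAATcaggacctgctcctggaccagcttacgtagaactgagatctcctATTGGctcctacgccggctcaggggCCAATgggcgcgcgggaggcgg
Psat1 (chr19:15925060-15925159, minus strand): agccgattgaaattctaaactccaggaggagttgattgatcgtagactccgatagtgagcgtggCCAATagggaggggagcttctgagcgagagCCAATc
Mthfd1 (chr12:76255132-76255231, plus strand): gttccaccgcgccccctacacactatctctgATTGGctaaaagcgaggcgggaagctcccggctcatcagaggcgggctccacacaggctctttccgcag
Shmt1 (chr11:60811266-60811365, minus strand): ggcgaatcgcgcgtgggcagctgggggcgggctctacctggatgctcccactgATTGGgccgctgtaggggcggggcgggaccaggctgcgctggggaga
Mthfd1l (chr10:3972975-3973074, plus strand): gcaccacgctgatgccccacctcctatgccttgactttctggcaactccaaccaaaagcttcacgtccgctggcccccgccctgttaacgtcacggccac

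Mthfd2 held 3 CCAAT boxes, starting 96, 47 and 22 bases before its start site, Psat1 held 2 at 36 and 6, Mthfd1 held 1 at 69 and Shmt1 held 1 at 47. Mthfd1l held none in this window. Over the 250 bases before the start site, 6 of the 9 members held a CCAAT box, against 34.5% of 27025 promoters of the same length. The other carriers were Phgdh and Psph, whose transcript levels overlapped between the groups. The element that ATF4 binds with C/EBP partners was searched as TGATGNAA and was in none of the 9 windows, against 3.52% of all promoters. The E-box CACGTG, which MYC binds, was in 1 member, Tyms at 61 bases, against 6.07% of all promoters. The E2F motif TTTCGCGC was in none (0.255% of all), and the ETS motif CCGGAAGT in Tyms alone (2.96%). All motifs were read on both strands, and none of these letter strings overlapped another in the members. A match describes letters only, and its absence from this window says nothing of a factor's binding.

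Phgdh (NCBI Gene 236539, chromosome 3, 98313171 to 98339969, minus strand) encodes phosphoglycerate dehydrogenase, which commits carbon to serine. It was measured at 52.9, 48.9 and 43.7 CPM in CCL19 replicates 1, 2 and 3 and at 38.4, 47.3 and 44.2 CPM in no-CCL19 replicates 1, 2 and 3. CCL19 replicate 3 lay below 2 of the no-CCL19 libraries. Its log2 fold change was 0.16 ± 0.10 (SE), with a 95% confidence interval from -0.05 to 0.37 (edgeR adjusted p = 0.298, DESeq2 adjusted p = 0.334). Phgdh had 57.2% GC, and with GC content and length as an offset DESeq2 gave 0.27 (adjusted p = 0.097). Its count is uncertain, since 63.1% of the 50-base windows of its longest transcript were also found in transcripts of other genes, led by the processed pseudogene Gm7901 and no source used here tells how the counting treated reads with more than 1 match.

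Psat1 (NCBI Gene 107272, chromosome 19, 15905123 to 15925059, minus strand) encodes the aminotransferase of the next step. Its levels were 117, 102 and 93.8 CPM with CCL19 and 67.2, 91.4 and 88.5 CPM without. The groups did not overlap, but the lowest CCL19 library exceeded the highest no-CCL19 library by only 1.03-fold, while the no-CCL19 libraries differed among themselves by 1.36-fold. On the log2 scale the fold change was 0.34 ± 0.11 (edgeR adjusted p = 0.0808, DESeq2 adjusted p = 0.0446). Psat1 had 48.4% GC, and DESeq2 did not call it under the GC and length offset (0.32, adjusted p = 0.0705). Without no-CCL19 replicate 1 it was 0.21 (edgeR adjusted p = 0.319).

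Psph (NCBI Gene 100678, chromosome 5, 129765558 to 129787253, minus strand) encodes the phosphatase that releases serine. It stood at 13.1, 14.5 and 15.1 CPM with CCL19 and 14.5, 14.6 and 13.2 CPM without. The groups lay over each other, and the log2 fold change of 0.01 ± 0.11 had a 95% confidence interval from -0.22 to 0.24 (edgeR adjusted p = 0.954). The transcript of the last step of serine synthesis was thus measured at nearly equal means, and its interval still allowed an increase of up to 1.19-fold. Psph had 49.6% GC, and 7.28% of its windows were shared, all with Cct6a.

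Shmt2 (NCBI Gene 108037, chromosome 10, 127517123 to 127522444, minus strand) encodes the mitochondrial serine hydroxymethyltransferase. Its levels were 473, 435 and 372 CPM with CCL19 and 301, 395 and 348 CPM without. CCL19 replicate 3 lay below no-CCL19 replicate 2, so the groups overlapped. The log2 fold change was 0.29 ± 0.11 (edgeR adjusted p = 0.108, DESeq2 adjusted p = 0.053). Shmt2 had 57.4% GC, and genes of its GC class had a median log2 fold change of -0.11. With GC content and length as an offset, its log2 fold change was 0.40 and DESeq2 called it (adjusted p = 0.0197). The table lists Ndufa4l2 on the opposite strand over part of Shmt2, and no source used here tells whether the counting used strand.

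Mthfd2 (NCBI Gene 17768, chromosome 6, 83305704 to 83317604, minus strand) encodes the mitochondrial methylenetetrahydrofolate dehydrogenase and cyclohydrolase, which is low in most resting adult tissue and high in dividing cells. It reached 120.3, 109.7 and 105.7 CPM with CCL19 and 72.9, 91.0 and 81.5 CPM without. The gap between the groups was the widest among the members, with the lowest CCL19 library 1.16-fold above the highest no-CCL19 library. The log2 fold change was 0.45 ± 0.09 with a 95% confidence interval from 0.26 to 0.64 (edgeR adjusted p = 0.0505, limma-voom adjusted p = 0.051, DESeq2 adjusted p = 0.00195). By unadjusted edgeR p it ranked 18 among 11666 genes. Its GC content of 49.6% was close to the median of tested genes (49.7%), and none of its windows was shared with another gene. The paralog Mthfd2l, which performs the same reactions, had only 23 to 59 counts in a library and a log2 fold change of 0.04 ± 0.30 (edgeR adjusted p = 0.945).

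Mthfd1l (NCBI Gene 270685, chromosome 10, 3973075 to 4167081, plus strand) encodes the mitochondrial formyltetrahydrofolate synthetase that yields formate. It was at 144, 131 and 124 CPM with CCL19 and 94.99, 115 and 108 CPM without. Its groups were apart, by 1.08-fold from lowest to highest, and the log2 fold change was 0.33 ± 0.09 (edgeR adjusted p = 0.0542, DESeq2 adjusted p = 0.0157). It had 51.7% GC and shared no window with another gene.

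Shmt1 (NCBI Gene 20425, chromosome 11, 60788897 to 60811265, minus strand) encodes the cytosolic counterpart of Shmt2. Its levels were 262, 242 and 209 CPM with CCL19 and 150.2, 204 and 191 CPM without. The groups did not overlap, with 1.03-fold between the nearest libraries and a 1.36-fold spread within the no-CCL19 group. Its log2 fold change was 0.39 ± 0.11 (edgeR adjusted p = 0.0606, DESeq2 adjusted p = 0.0161). It had 49.2% GC, and 4.81% of its windows were shared, all with Smcr8.

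Mthfd1 (NCBI Gene 108156, chromosome 12, 76255232 to 76319820, plus strand) encodes the trifunctional cytosolic enzyme. It stood at 205, 197 and 162 CPM with CCL19 and 125, 155 and 149 CPM without. CCL19 replicate 3 lay nearer to no-CCL19 replicates 2 and 3 than to the others of its group, and the groups were apart by 1.04-fold. The log2 fold change was 0.39 ± 0.10 (edgeR adjusted p = 0.0505, DESeq2 adjusted p = 0.00898). It had 52.6% GC, and no window was shared with another gene.

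Tyms (NCBI Gene 22171, chromosome 5, 30058200 to 30073625, minus strand) encodes thymidylate synthase, a gene of DNA replication. Between 52 and 93 counts fell on it in a library, which gave 3.13, 3.49 and 2.87 CPM with CCL19 and 2.81, 2.88 and 3.31 CPM without. The groups overlapped. The log2 fold change of 0.09 ± 0.20 had a 95% confidence interval from -0.33 to 0.51 (edgeR adjusted p = 0.804), which does not exclude a difference of the size seen for Mthfd2, and DESeq2 gave no adjusted p. Tyms had 46.7% GC. Other genes shared 8.79% of its windows, and 137 genes each had some of these. The pseudogene Tyms-ps had no count.

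Levels of different genes were compared per kilobase of exon, joined over the transcripts of GENCODE's basic set. Shmt2 led with 185 ± 22.0 (SD, n = 3) CPM per kb with CCL19 and 151 ± 20.4 without, and Shmt1 followed with 83.2 ± 9.29 and 63.6 ± 9.87. The highest Shmt1 library (91.7) stayed below the lowest of Shmt2 (131). Mthfd1 (57.9 ± 7.07 and 44.1 ± 4.79) and Mthfd2 (53.7 ± 3.62 and 39.2 ± 4.34) had ranges that overlapped in each group. Within a library Mthfd1 was the higher of them in all but CCL19 replicate 3. Psat1 (35.5 ± 3.95 and 28.1 ± 4.51) and Mthfd1l (31.2 ± 2.43 and 24.8 ± 2.37) also overlapped in each group, though Psat1 was higher within every library. Phgdh (25.6 ± 2.44 and 22.9 ± 2.39) overlapped with Mthfd1l without CCL19 but not with CCL19, and lay below it within every library. Psph lay lower at 8.20 ± 0.576 and 8.14 ± 0.455, and Tyms lowest at 1.00 ± 0.0981 and 0.948 ± 0.0860. The order was the same when the longest transcript set the length, although Psph then had a mean of 4.92 in place of 8.17. Within serine synthesis the last enzyme was thus the lowest, and within the mitochondrial branch Shmt2 stood far above Mthfd2 and Mthfd1l.

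**Figure D2:**
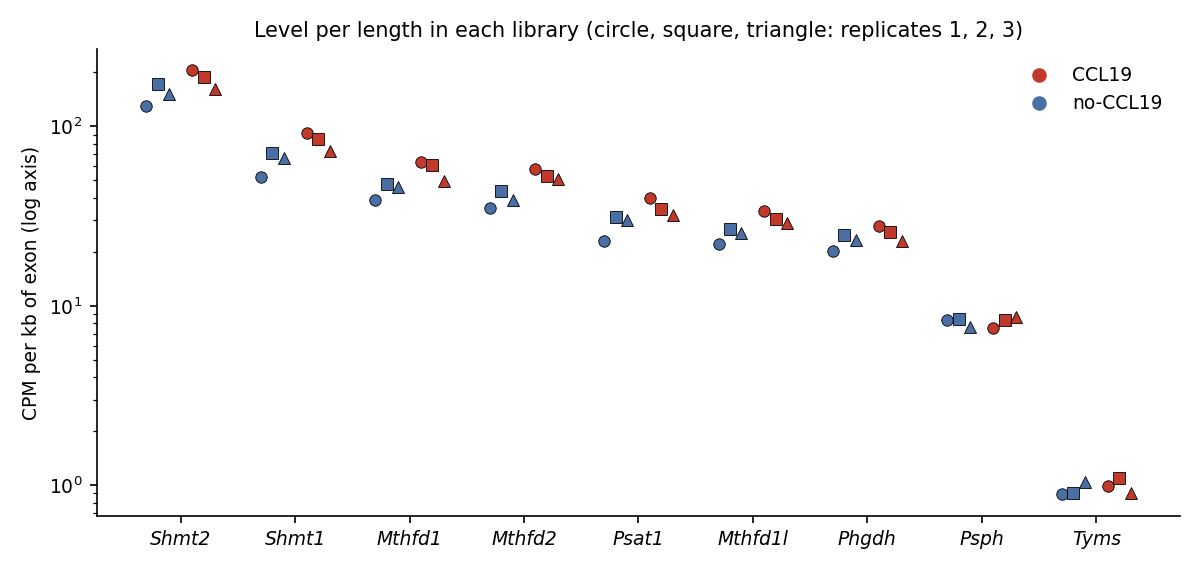
Level per length of each enzyme in every library, in CPM per kilobase of exon on a log axis, ordered by the mean over 6 libraries, with circles, squares and triangles for replicates 1, 2 and 3. Shmt2 is highest at 131 to 205 CPM per kb and Tyms lowest at 0.889 to 1.10, while the ranges of Mthfd1 and Mthfd2 overlap, as do those of Psat1, Mthfd1l and Phgdh.

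The design allows the mitochondrial and cytosolic branches to be compared within each library, where scaling cancels. Summed over Shmt2, Mthfd2 and Mthfd1l, the mitochondrial branch held 737, 675 and 602 CPM with CCL19 and 469, 601 and 537 CPM without, a ratio of means of 1.25. The cytosolic sum of Shmt1 and Mthfd1 was 467, 438 and 371 CPM with CCL19 and 276, 359 and 340 CPM without, a ratio of 1.31. For both sums each CCL19 library lay above each no-CCL19 library, though in the mitochondrial branch CCL19 replicate 3 and no-CCL19 replicate 2 were nearly equal. Within a library the log2 ratio of the mitochondrial to the cytosolic sum was 0.66, 0.62 and 0.70 with CCL19. Without CCL19 it was 0.77, 0.74 and 0.66. The groups overlapped in this ratio, with a difference in means of -0.06, which was not tested. Shmt2 was the largest part of the mitochondrial sum, at a mean of 427 of 672 CPM with CCL19 and 348 of 536 CPM without. These sums take no account of GC content, which was 57.4% in Shmt2. The serine synthesis sum of 183, 165 and 153 CPM with CCL19 against 120.0, 153 and 146 CPM without had a ratio of 1.19, and its groups overlapped.

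No ratio of a mitochondrial enzyme to its cytosolic partner passed a test. The log2 ratio of Shmt2 to Shmt1 was 0.85, 0.85 and 0.83 in CCL19 replicates 1, 2 and 3 and 1.00, 0.95 and 0.86 in the no-CCL19 libraries. It was lower with CCL19 in all 3 libraries, by 0.10 on average (2-sided exact permutation test, p = 0.1, adjusted over the 3 ratios to 0.3). No smaller p can be reached with 3 libraries a group. This ratio takes no account of GC content, which was 57.4% in Shmt2 and 49.2% in Shmt1. With GC content and length as an offset, edgeR's log2 fold changes were 0.40 for Shmt2 and 0.38 for Shmt1, so the direction towards the cytosolic partner was not kept. The log2 ratio of Mthfd2 to Mthfd1 was -0.76, -0.84 and -0.61 with CCL19 and -0.78, -0.76 and -0.86 without (difference 0.06, exact permutation p = 0.5, 2-sided, adjusted p = 0.5). That of Mthfd1l to Mthfd1 was -0.50, -0.59 and -0.38 with CCL19 and -0.40, -0.43 and -0.46 without (difference -0.06, exact permutation p = 0.5, 2-sided, adjusted p = 0.5). In both of these ratios the groups overlapped and CCL19 replicate 3 was the highest library. Without it the difference for Mthfd2 to Mthfd1 was -0.00042.

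**Figure D3:**
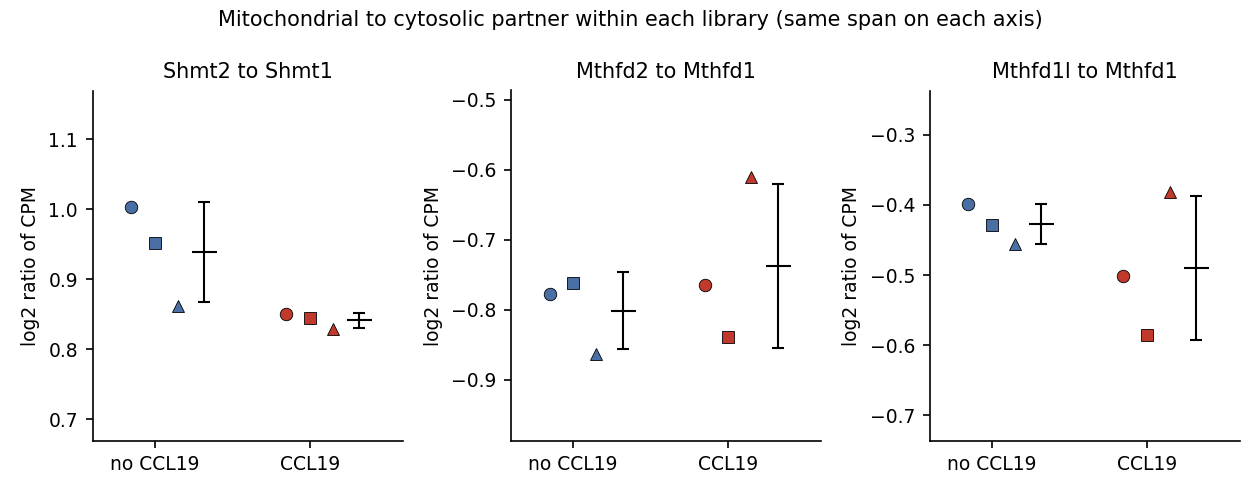
Log2 ratio of the CPM of a mitochondrial enzyme to that of its cytosolic partner in each library (y axis, the same span in each panel), by group (x axis), with circles, squares and triangles for replicates 1, 2 and 3 and bars for the mean ± SD. The ratio of Shmt2 to Shmt1 is lower in all 3 CCL19 libraries, between 0.83 and 0.85 against 0.86 to 1.00, a direction not kept with GC content and length as an offset, and the groups overlap for the other ratios.

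Members other than Psph and Tyms moved from library to library together. Psat1, Mthfd2, Mthfd1l, Shmt1 and Mthfd1 ranked the 6 libraries in the same order, from CCL19 replicate 1, 2 and 3 to no-CCL19 replicate 2, 3 and 1, an order shown by 2.8% of tested genes. Myc, a transcription factor that drives growth of activated T cells, had that order too, at 1046, 936 and 781 CPM with CCL19 and 570, 771 and 715 CPM without. CCL19 replicate 1 was the highest and no-CCL19 replicate 1 the lowest library in 7 members, as in 16% of tested genes. Across the 6 libraries Pearson's r of log2 CPM lay between 0.848 and 0.989 in the 21 pairs among members other than Psph and Tyms, and between -0.482 and 0.601 in the 15 pairs with either, as a description over points that share libraries and groups. Many other genes had values as high. By r with Mthfd2, Phgdh lay at percentile 82.0 of 8585 genes compared, Shmt2 at 91.7 and Psat1 at 92.1. Mthfd1 lay at 95.2, Shmt1 at 95.8 and Mthfd1l at 99.6.

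Because the ends of this order are 1 library of each group, the calls were read with each library left out. DESeq2 called Mthfd2 in all 6 such fits (adjusted p from 0.000763 to 0.0491). It called Mthfd1, Shmt1, Mthfd1l and Psat1 in 3 of 6, and lost them without CCL19 replicate 1, without CCL19 replicate 2 and without no-CCL19 replicate 1. Over all genes DESeq2 called 630 higher with all 6 libraries, 20 without CCL19 replicate 1 and 56 without CCL19 replicate 2. Without no-CCL19 replicate 1 the edgeR log2 fold change was 0.37 for Mthfd2, 0.31 for Mthfd1, 0.27 for Shmt1, 0.25 for Mthfd1l, 0.20 for Shmt2 and 0.08 for Phgdh. In the other direction, edgeR called all 5 of these genes and Shmt2 without CCL19 replicate 3, with log2 fold changes of 0.48 for Mthfd2, 0.48 for Mthfd1, 0.46 for Shmt1, 0.40 for Psat1, 0.38 for Shmt2 and 0.37 for Mthfd1l (edgeR adjusted p from 0.017 to 0.0337). Over these fits the value of Mthfd2 lay between 0.37 and 0.53. The number of all genes called also changed widely between these fits, with ranges given below. Gains and losses of member calls cannot be told apart from that change.

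**Figure D4:**
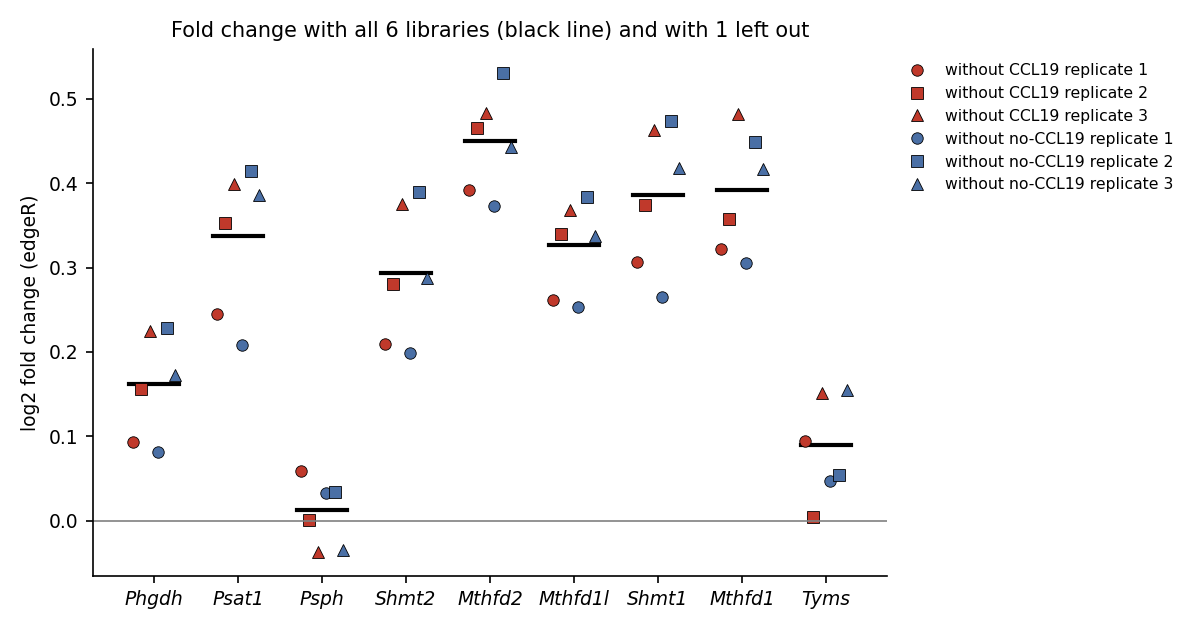
Log2 fold change of each enzyme (edgeR, y axis) with all 6 libraries (black line) and with 1 library left out (symbols, coloured by the group of the library). The value is lowest without no-CCL19 replicate 1 in 7 of the 9 enzymes, stays between 0.37 and 0.53 for Mthfd2, and crosses 0 for Psph.

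Other genes of the folate and serine pathways were counted from lists. edgeR called 0 members of any list, so counts are given by DESeq2 (6.55% of all genes called higher, 5.6% lower) and by unadjusted edgeR p under 0.05 (14.5% of all genes higher, 13% lower), beside a median log2 fold change over all tested genes of -0.00. By unadjusted edgeR p, 4 of 6 mitochondrial branch genes were higher and 0 lower, and 2 and 1 of 7 cytosolic genes. The counts were 2 and 0 of 4 for folate uptake, 1 and 1 of 3 for glycine cleavage and 4 and 1 of 9 for transport. They were 6 and 0 of 10 for the methionine cycle, 2 and 0 of 5 for transsulfuration and 3 and 1 of 8 for thymidylate partners. Serine users had 2 and 0 of 10 and regulators 3 and 1 of 9. Of 6 tested genes of the mitochondrial branch DESeq2 called 3 higher and 0 lower, with a median of 0.31. The third, beside Mthfd2 and Mthfd1l, was Slc25a32, the carrier that brings folate into mitochondria, at 54.2, 45.4 and 43.0 CPM with CCL19 and 33.2, 39.9 and 39.9 CPM without (0.33 ± 0.10, edgeR adjusted p = 0.0722, DESeq2 adjusted p = 0.0436). DESeq2 did not call Slc25a32 with GC content and length as an offset (adjusted p = 0.122). Aldh1l2, which oxidises formyl folate in mitochondria, had 2 counts in 1 library and 0 in the rest.

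Of 7 tested genes of the cytosolic branch DESeq2 called 2 higher, Shmt1 and Mthfd1, and 0 lower, with a median of 0.09. The S phase and E2F target list had a median of 0.07 over 23 genes, with 0 called by DESeq2, 1 higher and 1 lower by unadjusted edgeR p. Its most abundant gene, the replication clamp Pcna, stood at 173 ± 12.9 against 149 ± 9.68 CPM, a count that is uncertain because 31.8% of its windows are shared with other genes.

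Folate uptake genes (4 tested) had 0 called by DESeq2 and a median of 0.28. Slc19a1, the reduced folate carrier, was measured at 236, 210 and 164 CPM with CCL19 and 143, 183 and 158 CPM without, with overlapping groups (0.33 ± 0.12, edgeR adjusted p = 0.1, DESeq2 adjusted p = 0.0528), and DESeq2 called it under the GC and length offset (0.39, adjusted p = 0.0322). Glycine cleavage, an alternative source of folate carbon, had 3 tested genes and a median of 0.09. DESeq2 called Gcsh, which encodes the lipoyl carrier protein shared with lipoate transfer, at 64.7 ± 5.85 against 47.0 ± 6.51 CPM (0.46 ± 0.10, edgeR adjusted p = 0.0505, DESeq2 adjusted p = 0.0049). Amt, the folate-dependent subunit, was lower at 1.93, 2.03 and 2.32 against 3.76, 3.39 and 3.20 CPM (-0.72 ± 0.21, edgeR adjusted p = 0.061), and DESeq2 gave it no adjusted p. The decarboxylase Gldc averaged 0.129 CPM with CCL19 and 0.126 without and did not pass the filter on low counts.

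Serine and glycine transporters gave 2 higher and 1 lower by DESeq2 among 9 tested, with a median of 0.22. Of the sideroflexins, mitochondrial serine carriers, Sfxn1 and Sfxn3 went opposite ways. The groups overlapped for Sfxn2 (-0.08 ± 0.11, edgeR adjusted p = 0.652). Sfxn1 stood at 82.4, 74.8 and 64.2 CPM with CCL19 against 54.4, 59.0 and 63.9 CPM (0.32 ± 0.10, DESeq2 adjusted p = 0.0347), and Sfxn3 at 102.7, 116.9 and 123 against 166, 139 and 137 CPM (-0.37 ± 0.09, DESeq2 adjusted p = 0.00826). DESeq2 with the offset called Sfxn3 (adjusted p = 0.0217) and not Sfxn1 (0.0939). The amino acid transporter Slc38a1 was at 389 ± 36.7 against 324 ± 17.9 CPM (0.26 ± 0.09, edgeR adjusted p = 0.0813, DESeq2 adjusted p = 0.0308).

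Purine synthesis is a main consumer of cytosolic formyl folate. All 12 tested genes had a log2 fold change above 0, 10 had an unadjusted edgeR p under 0.05, DESeq2 called 5, and the median was 0.26. Atic and Gart, the enzymes that take a formyl group from folate, stood at 124 ± 10.9 against 99.2 ± 4.92 CPM (0.32 ± 0.08, edgeR adjusted p = 0.0505, DESeq2 adjusted p = 0.0107) and at 256 ± 32.3 against 203 ± 23.5 CPM (0.33 ± 0.10, edgeR adjusted p = 0.0722, DESeq2 adjusted p = 0.0253). The guanine nucleotide enzymes Gmps (0.35) and Impdh2 (0.30) were also called by DESeq2, with 73.9% of Impdh2 windows shared with other genes. The groups overlapped for Gart and not for Atic, Gmps and Impdh2.

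The methionine cycle, which takes folate carbon for methylation, had 3 of 10 tested genes called higher by DESeq2, 0 lower and a median of 0.25. Mat2a, the enzyme that makes S-adenosylmethionine, was at 541, 494 and 488 CPM with CCL19 and 371, 434 and 433 CPM without (0.30 ± 0.09, edgeR adjusted p = 0.0636, DESeq2 adjusted p = 0.0137), and DESeq2 did not call it with the offset (adjusted p = 0.0633). The salvage enzyme Mtap (0.40) and the polyamine enzyme Amd1 (0.41, with 87.6% of windows shared with other genes) were the other 2. Mtr, the methionine synthase that joins the folate and methionine cycles, was at 52.4 ± 3.69 against 52.6 ± 1.73 CPM (-0.01 ± 0.08, edgeR adjusted p = 0.973).

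**Figure D5:**
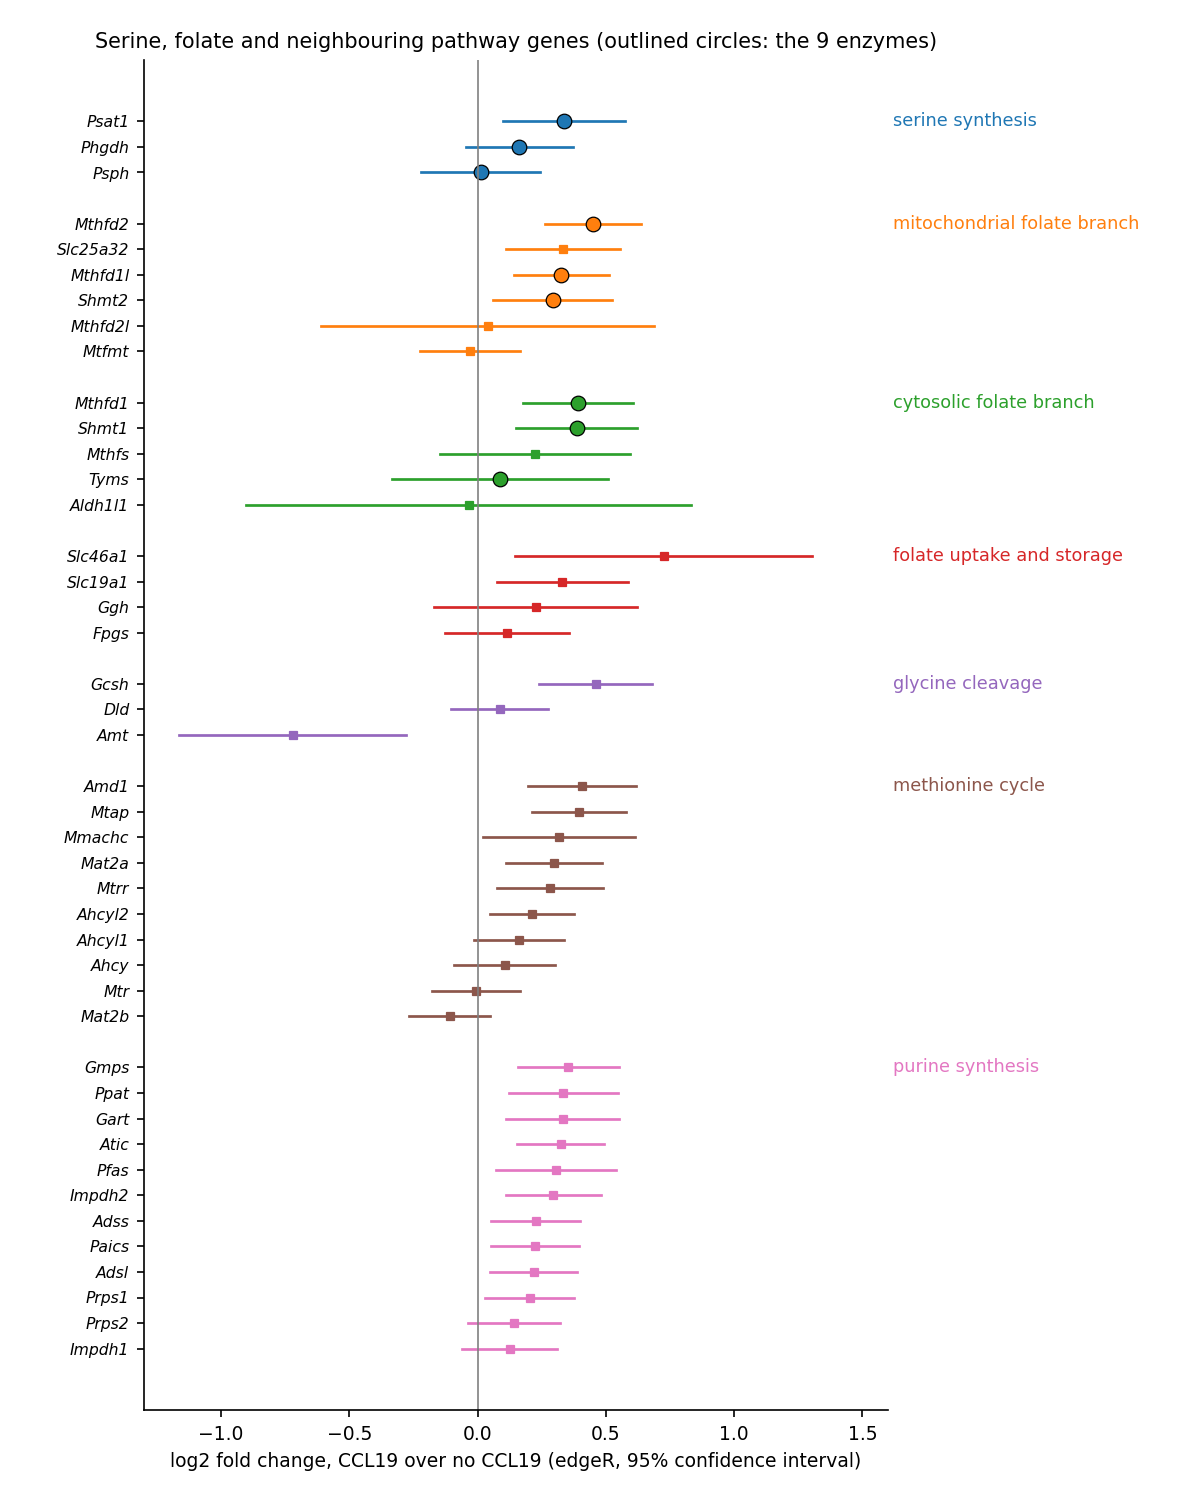
Log2 fold change, CCL19 over no CCL19, with 95% confidence interval from edgeR (x axis) for genes of 7 lists (y axis), the 9 enzymes as outlined circles. All 12 purine synthesis genes lie above 0, Amt lies below it, and Psph, Tyms and Mtr lie near it.

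Users of serine or glycine other than folate enzymes gave 2 of 10 called higher, the glycyl-tRNA synthetase Gars (0.29) and Sptlc1 (0.29), a subunit of the enzyme that starts sphingolipids, and a median of -0.00. DESeq2 did not call Sptlc1 under the offset (adjusted p = 0.0663). In the thymidylate partners DESeq2 called 1 of 8, the deaminase Dctd at 25.1 ± 4.24 against 17.8 ± 1.80 CPM (0.49 ± 0.12, edgeR adjusted p = 0.0505, DESeq2 adjusted p = 0.0128), with a median of 0.10. Transsulfuration and glutathione genes had 0 of 5 called and a median of 0.04, with Gclc, which limits glutathione synthesis, at 110.0 ± 2.75 against 98.3 ± 3.45 CPM (0.16 ± 0.07, edgeR adjusted p = 0.148). Of 9 regulators DESeq2 called 1, Myc (0.43 ± 0.12, edgeR adjusted p = 0.0606, DESeq2 adjusted p = 0.00948). Atf4, the transcription factor that induces serine synthesis genes when amino acids are short, was at 369, 367 and 355 CPM with CCL19 and 307, 349 and 329 CPM without (0.15 ± 0.08, edgeR adjusted p = 0.239, DESeq2 adjusted p = 0.18). Under the GC and length offset DESeq2 called Atf4 (0.23, adjusted p = 0.0392). Its groups did not overlap, but Atf4 is controlled largely at translation, which these counts do not measure. Of the 16 genes of these lists beyond the members that DESeq2 called and that are named here, 0 were called in all 6 fits with a library left out, and 12 were called with GC content and length as an offset. DESeq2 gave Slc25a32, Gcsh, Sfxn1, Amd1 and Gmps an adjusted p in only 5 of the 6 fits and Dctd in 4. A call in all 6 was therefore not possible for these genes.

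The genes whose levels over the 6 libraries were most like those of Mthfd2, among 8585 compared, were Mettl2, Phf5a, Pcgf6, Blmh and Pomp, with Pearson's r of log2 CPM from 0.994 to 0.997. Their log2 fold changes were smaller, from 0.21 to 0.29. Of the other members Mthfd1l was nearest (r = 0.987), followed by Shmt1 (0.951), Mthfd1 (0.947), Psat1 (0.926) and Shmt2 (0.923). In the authors' deposited table of changed genes, 5 of the 9 members, Mthfd2, Mthfd1l, Mthfd1, Shmt1 and Psat1, are listed as higher with CCL19 and none as lower, where 5.4% of tested genes are listed as higher. That table lists 1168 genes, the same 1168 that DESeq2 called here from the same counts. It is therefore not a separate result.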

How the data were processed

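Messenger RNA of 6 samples was sequenced from Illumina TruSeq libraries, per the labels' protocols. The authors deposited raw counts per gene with mm10 coordinates, per the file headers, and STAR 2.5, featureCounts 1.5.0-p1 and DESeq2 1.28.1 are named in the submitters' processing notes. No source used here gives the strand setting, the annotation release or the handling of multiply matched reads. A deposited list gives changed genes by direction in words.

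Groups came from sample titles. edgeR 4.0.16 (quasi-likelihood F test, filterByExpr, TMM) in R 4.3.3 compared the 3 CCL19 with the 3 no-CCL19 libraries over the whole table; p-values were adjusted by Benjamini-Hochberg and called under 0.05. SE is the log2 fold change divided by the square root of F, and intervals are 95%. DESeq2 1.42.0 and limma 3.58.1 (voom) were alternatives. DESeq2 gave an adjusted p to 9613 genes. Ratios used CPM plus 0.5 on a log2 scale. No library repeated another: the chi-square per degree of freedom between libraries was at least 5.19. Exon lengths (basic set), GC content and 50-base windows shared with other genes came from GENCODE M21 on the same assembly, with GC available for 98.1% of tested genes. The offset used natural splines of 5 degrees of freedom. Scripts were tested on simulated data. Figures used matplotlib 3.10.9. The rule for named genes took the members, up to 4 genes called by DESeq2 in each list or else the most abundant one, Atf4, Myc and the 5 genes most like Mthfd2 with a mean log2 CPM of at least 3. Mthfd2l, Aldh1l2, Amt, Gldc, Mtr and Sfxn2 were added after their values were seen. Values of some listed genes are not reported here, though list counts include them. The members and lists were chosen with earlier results of these data known.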

Additional observations from a re-analysis of the deposited data

How the results depend on the processing

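All log2 fold changes of members kept their direction in every alternative run except that of Psph. Psph ranged from -0.037 to 0.059 in edgeR and from -0.029 to 0.061 in DESeq2 with 1 library left out, and was below 0 without CCL19 replicate 3 and without no-CCL19 replicate 3 (-0.035 in edgeR, -0.027 in DESeq2). Without a filter on low counts edgeR called 803 genes higher and 797 lower, and Mthfd2 (0.45), Mthfd1 (0.39), Shmt1 (0.38), Psat1 (0.33), Mthfd1l (0.32) and Shmt2 (0.29) passed. With a robust prior it called 267 and 262, and Mthfd2 (0.45), Mthfd1 (0.39) and Mthfd1l (0.33) passed. DESeq2 called 630 and 538, and Mthfd2 (0.45), Mthfd1 (0.39), Shmt1 (0.39), Psat1 (0.34) and Mthfd1l (0.33) passed. Offset for GC and length, DESeq2 called 315 lower, lost Psat1 (0.32) and gained Shmt2 (0.40). Over fits with 1 library left out, edgeR called 0 to 772 genes higher and 0 to 827 lower, and DESeq2 20 to 905 and 35 to 799. edgeR's log2 fold change then ranged from 0.21 to 0.41 for Psat1, 0.20 to 0.39 for Shmt2, 0.37 to 0.53 for Mthfd2, 0.25 to 0.38 for Mthfd1l, 0.27 to 0.47 for Shmt1 and 0.31 to 0.48 for Mthfd1. In DESeq2 the ranges were 0.21 to 0.42 for Psat1, 0.20 to 0.40 for Shmt2, 0.25 to 0.39 for Mthfd1l, 0.26 to 0.48 for Shmt1 and 0.30 to 0.49 for Mthfd1. The difference in the ratio of Mthfd2 to Mthfd1 ranged from -0.00042 to 0.11. The cause of these changes was not tested.

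Deviations from group means of same-numbered libraries correlated at -0.224, 0.105 and -0.0461 over genes. With 3 libraries a group, such values cannot tell whether the replicate numbers pair the samples. With a replicate block edgeR called 0 genes, and DESeq2 called 103 higher and 75 lower, losing Psat1 (0.34), Mthfd1l (0.33), Shmt1 (0.39) and Mthfd1 (0.39) and keeping Mthfd2 (adjusted p = 0.0293). Not every library correlated best with its own number. Tyms and Mthfd2l had few counts, and depth was not varied.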
